A study of Homo sapiens with 14 samples.

Results

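The L1 stalk stretch of human 28S ribosomal RNA was taken as nucleotides (nt) 3877 to 4175, the 5′ part of domain V with the L1 stalk and the expansion segments ES30L and ES31L. All 299 of its nucleotides carried a score, out of 5034 scored nucleotides of 28S rRNA, and the other 4735 served as the reference. The members were chosen by position alone. The borders are approximate and rest on the numbering of a profile as long as RNA28SN5, 1 of 5 listed gene copies (positions 113348 to 118417 of a GRCh38.p14 sequence with no chromosome assigned). No rRNA sequence was used here, so neither the borders nor the base at any position was checked, and no sequence is printed.

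The values came from HEK293 cells, a line of human embryonic kidney origin that carries adenovirus 5 DNA. The cells were treated for 10 min with AcIm (acetylimidazole) at 100 mM, with a reagent labelled AcIN3 at 200 mM, or with NAIN3 (the azide-bearing nicotinic acid imidazolide NAI-N3) at 100 mM, and 10% DMSO was the control. The labels list 14 samples in 7 groups of 2 biological replicates, 8 samples of gel-purified 18S and 28S rRNA and 6 of polyadenylated RNA. The 3 reagent groups on rRNA had values here, each as the authors' mean R-score per nucleotide, which runs from 0 to 1. A mean hides both replicates, so no difference below was tested against replicate spread, and the depth behind a score is unknown.

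The L1 stalk is a mobile arm of the large ribosomal subunit beside the exit site for tRNA. Its rRNA binds the ribosomal protein uL1, and it swings inward to hold the elbow of deacylated tRNA and outward to release it. Expansion segments are insertions of eukaryotic rRNA that bacterial rRNA lacks, many of them on the ribosome surface. Reagents of this kind acylate the 2′-hydroxyl of the ribose where a nucleotide is flexible and within reach, and reverse transcriptase is then stopped beside the adduct. AcIm carries a small acetyl group, whereas the nicotinic group of NAIN3 is an aromatic ring that bears an azide. AcIN3 is known here by its label only.

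NAIN3 scored exactly 1 at 3 nucleotides of the stretch, a share (1%) near that in all of 28S (0.814%). In these mean scores many other nucleotides of the stretch were at exactly 0 with NAIN3, in compact patches. AcIm and AcIN3 were seldom at 0 in these patches, but the zeros they had in the stretch all lay there. They were nt 3983, 4053 and 4134 for AcIm and nt 4134 for AcIN3. In all of 28S, 0.755% of nucleotides were at 0 with AcIm and 1.37% with AcIN3. At the zeros of the patch at nt 4052 to 4079 both had median scores (0.088 and 0.177) above their 28S medians (0.0655 and 0.1005). In the patch at nt 3925 to 3936 this held for AcIN3 only (0.122, against 0.024 for AcIm), and in the other patches for neither. The reagents shared 11 top nucleotides, nt 3904, 3922, 3962, 4002, 4031 and 4140 among them, a share of the stretch (3.68%) near that in all of 28S (4.03%). The plot of scores along the stretch shows each of these.

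**Figure D1:**
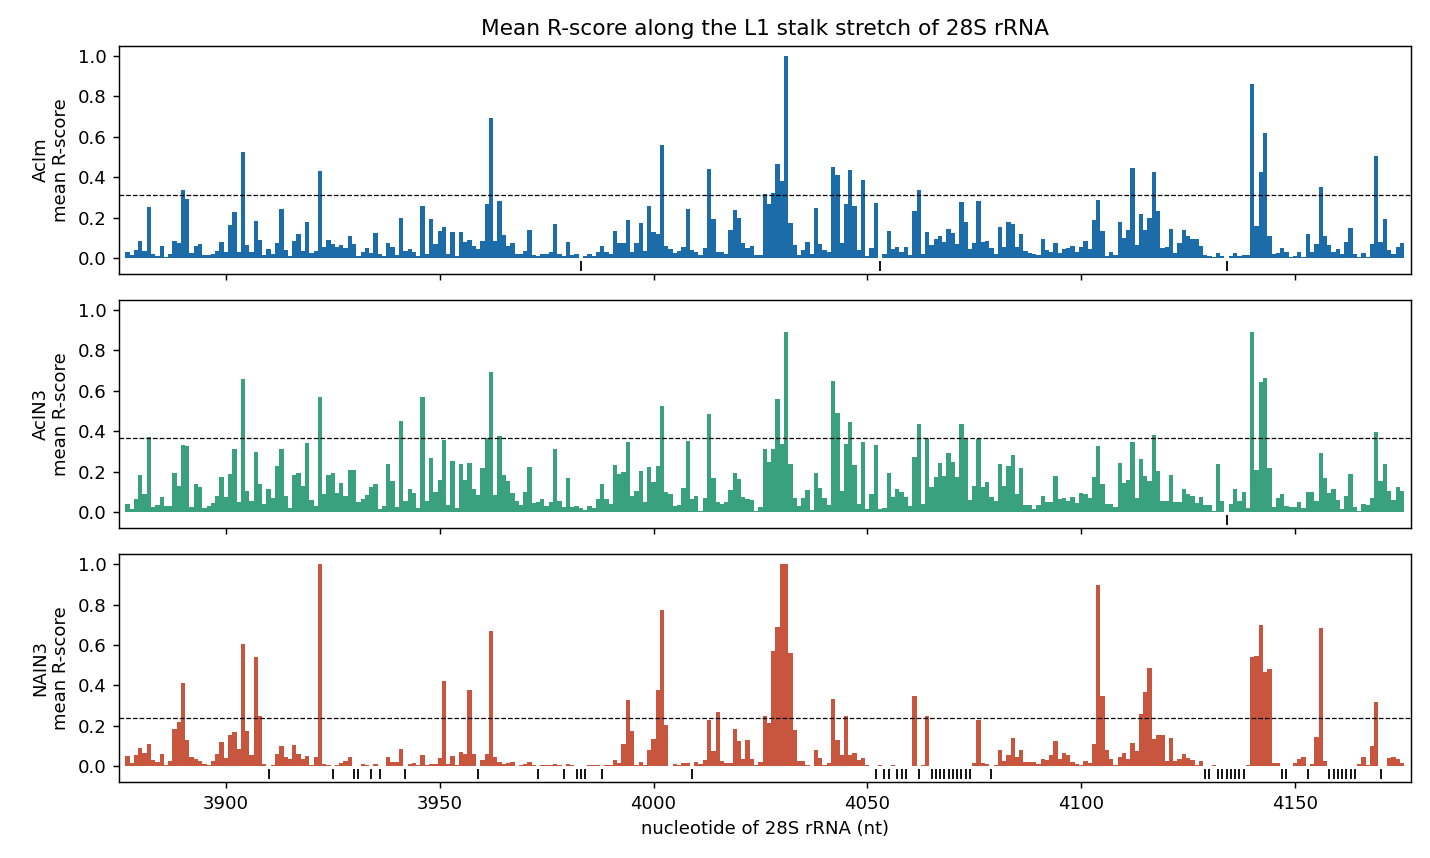
Mean R-score (0 to 1) of each nucleotide from nt 3877 to 4175 of 28S rRNA, 1 panel per reagent. The dashed line is the lowest score in the top 10% of 28S nucleotides (0.3095 for AcIm, 0.369 for AcIN3, 0.2395 for NAIN3), and ticks under the axis mark scores of exactly 0, of which NAIN3 had 53, AcIm 3 and AcIN3 1.

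Typical scores in the stretch were close to those of the rest of 28S for AcIm and AcIN3 and lower for NAIN3. The median R-score was 0.059 in the stretch and 0.0655 elsewhere for AcIm, 0.097 and 0.1005 for AcIN3, and 0.022 and 0.0335 for NAIN3. Because the reagents differed in dose and score range, further comparisons used the percentile rank of a nucleotide among all scored 28S nucleotides of the same reagent. The median rank in the stretch was 46.5 for AcIm, 48.8 for AcIN3 and 39.1 for NAIN3, where 28S as a whole sits at 50. Among 10 consecutive sections of 28S, the stretch had the lowest median rank with NAIN3. The next lowest was its 5′ neighbour, the domain IV core at nt 3599 to 3876 (43.0), whereas its 3′ neighbour with the peptidyl transferase centre, nt 4176 to 4576, had 55.6.

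Highly reactive nucleotides, the top 10% of 28S by score, numbered 23 for AcIm (7.69% of the stretch), 21 for AcIN3 (7.02%) and 34 for NAIN3 (11.4%). The background was 9.99% for each reagent. AcIN3 thus had its lowest share of the 10 sections here, though domain VI with ES39L was close at 7.33%. The NAIN3 share lay near the background. The limits of the top 10% were narrow, with the highest score left out equal to the lowest score taken in for every reagent. NAIN3 had 15 nucleotides above 0.5 (5.02%, against 3.53% elsewhere), whereas AcIm had 7 (2.34%, against 4.77%) and AcIN3 had 11 (3.68%, against 5.72%). The upper end of the NAIN3 profile was thus no lower than elsewhere, although its median was.

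The replicates bound the values in one way. If no replicate can leave the range from 0 to 1, a mean of 0 or 1 fixes both replicates. Any other mean m confines them to the range from 2m − 1 to 2m. All scores of the stretch fell on steps of 0.0005. Between 37.5% (NAIN3) and 48.5% (AcIm) were odd multiples of that step, as a pair of unequal values with 3 decimals can give. Where the possible ranges of a pair of reagents do not overlap, the means alone force both replicates of one above both of the other, and this is called the replicate bound below.

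The highest place of the stretch was nt 4031. AcIm scored 1 there, NAIN3 scored 1 and AcIN3 scored 0.8905, so both AcIm and both NAIN3 replicates were at 1 and each AcIN3 replicate was at 0.781 or above. The reagents differed in how far the signal spread around this nucleotide. From nt 4028 to 4030 NAIN3 scored 0.570, 0.6905 and 1, and at nt 4032 it scored 0.561. AcIm scored 0.324, 0.464, 0.382 and 0.1715 at these 4 nucleotides, and AcIN3 scored 0.3115, 0.5605, 0.335 and 0.239. NAIN3 thus had 5 consecutive top nucleotides, nt 4028 to 4032. AcIm had 4 that ended at nt 4031, which was as long as any AcIm run in 28S. AcIN3 had separate top nucleotides at nt 4029 and 4031. At nt 4034 all reagents were back at 0.031 or lower.

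Another compact group started at nt 4140. NAIN3 again had 5 consecutive top nucleotides there, ending at nt 4144, and AcIm and AcIN3 had 3 that were broken by nt 4141. At nt 4140 AcIm scored 0.8605 and AcIN3 0.8895, against 0.540 for NAIN3. At its neighbour nt 4141 NAIN3 kept 0.545, whereas AcIm had 0.1565 and AcIN3 0.2065. Signal then rose again with AcIm and AcIN3, to 0.4235 and 0.646 at nt 4142 and to 0.620 and 0.662 at nt 4143, where NAIN3 had 0.6965 and 0.4675. NAIN3 extended 1 nucleotide further, with 0.480 at nt 4144 against 0.107 for AcIm. On the 5′ side the step was abrupt in every reagent, from at most 0.0185 at nt 4139.

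**Figure D2:**
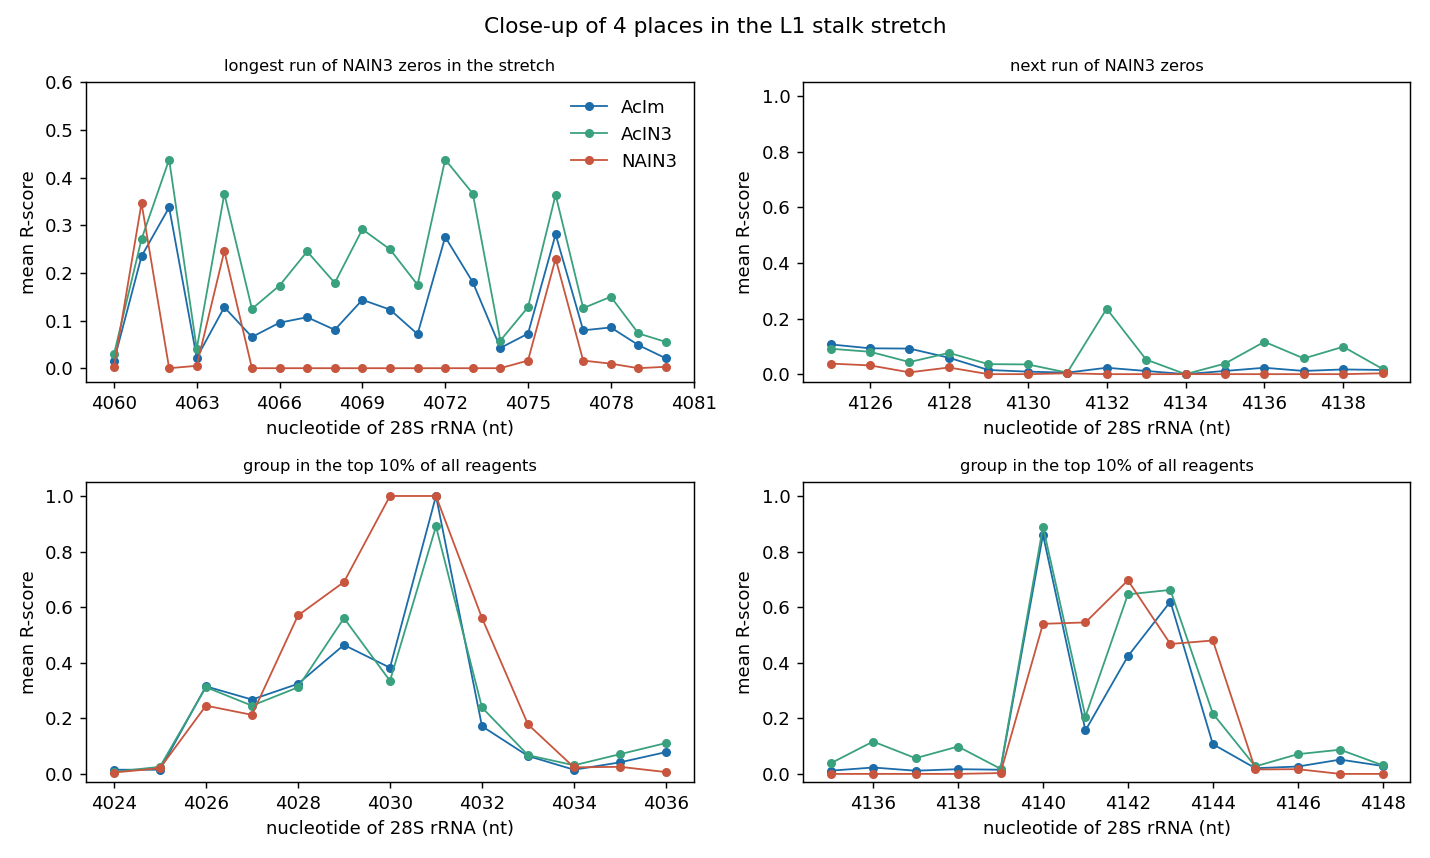
Mean R-score (0 to 1) against nucleotide of 28S rRNA at 4 places, with AcIm in blue, AcIN3 in green and NAIN3 in red. The upper panels show runs of NAIN3 zeros at nt 4065 to 4074, where AcIN3 reached 0.438, and at nt 4132 to 4138, where AcIm stayed at 0.023 or lower, and the lower panels show the runs of NAIN3 top nucleotides at nt 4028 to 4032 and nt 4140 to 4144.

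Consecutive top nucleotides were more common with NAIN3 than with the other reagents, in the stretch as in 28S as a whole. In the stretch, 19 of 34 NAIN3 top nucleotides (55.9%) stood directly beside another, against 8 of 23 for AcIm (34.8%) and 4 of 21 for AcIN3 (19.0%). Over all 28S these shares were 55.5%, 30.0% and 31.8%. The NAIN3 runs of 5 nucleotides at nt 4028 to 4032 and nt 4140 to 4144 were 2 of 11 runs of that length or longer in 28S. The NAIN3 profile was also smoother, with a Spearman correlation of 0.60 between neighbouring nucleotides, compared with 0.29 for AcIm and 0.21 for AcIN3. Elsewhere in 28S these were 0.51, 0.22 and 0.22. Neighbouring nucleotides share reads and are not independent.

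In all, 11 nucleotides of the stretch were in the top 10% of all 3 reagents (3.68%, background 4.03%). Apart from the groups at nt 4029 and 4031 and at nt 4140, 4142 and 4143, they stood alone at nt 3904, 3922, 3962, 4002, 4042 and 4169. At nt 3962 the reagents gave nearly the same score, 0.692 for AcIm, 0.6945 for AcIN3 and 0.670 for NAIN3. At nt 4002 NAIN3 was highest with 0.7735, against 0.560 and 0.5275. At nt 3904 the scores were 0.526, 0.6595 and 0.6035. Each of these 3 nucleotides was higher in every reagent than the 3 nucleotides on either side of it. At the last of the set, nt 4169, AcIm led with 0.5045, over 0.394 for AcIN3 and 0.3185 for NAIN3.

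NAIN3 exceeded AcIm by the replicate bound at 3 nucleotides of the stretch, nt 3922, 4030 and 4104 (1.00%, background 0.854%). At nt 3922 NAIN3 scored 1, AcIm 0.4295 and AcIN3 0.5685, and the scores fell on both sides, to 0.044 or lower at nt 3921 and to 0.0915 or lower at nt 3923. At nt 4030 NAIN3 scored 1, AcIm 0.382 and AcIN3 0.335. At nt 4104 NAIN3 scored 0.898, AcIm 0.2895 and AcIN3 0.329, so each NAIN3 replicate was at 0.796 or above and each AcIm replicate at 0.579 or below. The last 2 also passed the bound against AcIN3 (0.669% of the stretch, background 0.854%). AcIm exceeded NAIN3 by the bound at 0 nucleotides of the stretch, where the background was 1.09%, and AcIN3 exceeded NAIN3 at 1 (0.334%, background 1.47%). That nucleotide was nt 3946, with 0.571 for AcIN3, 0.056 for NAIN3 and 0.257 for AcIm. AcIm and AcIN3 did not pass the bound against each other in either direction (backgrounds 0.0397% for AcIm over AcIN3 and 0.119% for AcIN3 over AcIm). Only a mean above 0.5 can pass the bound as the higher of a pair, so its counts follow the score level too.

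AcIm and NAIN3 shared a dose and a time, and few of their top nucleotides lay on opposite sides of the median. A single AcIm top nucleotide fell below rank 50 with NAIN3 (0.334% of the stretch, background 0.735%). It was nt 4062, at 0.3375 for AcIm and 0.438 for AcIN3 but at 0 for NAIN3. Its 5′ neighbour nt 4061 ran the other way, with 0.3465 for NAIN3 against 0.235 for AcIm. In the converse direction a single NAIN3 top nucleotide fell below rank 50 with AcIm (0.334%, background 0.556%). This was nt 4015, with 0.2665 for NAIN3, 0.0275 for AcIm and 0.049 for AcIN3. It was also the only NAIN3 top nucleotide of the stretch below the median of AcIN3 (0.334%, background 0.795%). Neither nt 4062 nor nt 4015 passed the replicate bound for this pair.

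The other wide leads were smaller. After nt 4062, AcIm led NAIN3 most in rank at nt 4049 (0.3855 against 0.041), nt 4046 (0.4355 against 0.0565), nt 4112 (0.4445 against 0.113) and nt 4043 (0.413 against 0.129). Of these 5, all but nt 4112 lay within nt 4043 to 4062, a span drawn around them after they were picked. It ends 3 nt before the longest run of NAIN3 zeros. NAIN3 led AcIm most, after nt 4015, at nt 3957 (0.3765 against 0.0885), nt 3908 (0.249 against 0.0885), nt 4144 and nt 4001 (0.377 against 0.1175). Of these, nt 4144 and nt 4001 lay directly beside a nucleotide high in all reagents. Top nucleotides side by side were common with NAIN3 (55.9% in the stretch, 55.5% in 28S).

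AcIN3 and NAIN3 were used at different doses (200 and 100 mM), so their values are set side by side. Among AcIN3 top nucleotides 3 fell below rank 50 with NAIN3 (1.00%, background 1.01%), namely nt 4062, nt 4072 (0.438 for AcIN3 and 0 for NAIN3) and nt 3964 (0.378 and 0.0205). Further wide AcIN3 leads were nt 3946 and nt 4046 (0.446 and 0.0565). The widest NAIN3 leads after nt 4015 were nt 4105 (NAIN3 0.3465, AcIN3 0.1385), nt 4116 (0.486 and 0.154), nt 3908 (0.249 and 0.1365) and nt 4115 (0.365 and 0.177). All but nt 3908 and nt 4015 lay within nt 4105 to 4116, a span drawn around these leads after they were picked.

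AcIm and AcIN3, again at different doses, kept nearly the same order. No rank lead among their top nucleotides exceeded 11.5 points. AcIN3 led at nt 3941 (0.4505 against 0.197, by 11.5 points) and nt 3946 (0.571 against 0.257, by 8.71 points), and then by at most 4.21 points at nt 4072, nt 3882 and nt 4142. AcIm led at nt 4156 (0.3505 against 0.2915, by 7.06 points), nt 4112 (5.54 points), nt 4030, nt 4028 and nt 4169. Across the 299 nucleotides Spearman's rho was 0.92 between these reagents (0.88 in the rest of 28S). It was 0.57 between AcIm and NAIN3 (0.63 elsewhere) and 0.48 between AcIN3 and NAIN3 (0.57 elsewhere), the latter being the lowest of the 10 sections. Pearson's r on the scores ran the other way, at 0.70 between AcIm and NAIN3 (0.63 elsewhere) and 0.66 between AcIN3 and NAIN3 (0.57 elsewhere). Of AcIm's 23 top nucleotides 16 were also top with NAIN3 (69.6%, or 47.1% of NAIN3's 34), against 50.2% of AcIm's and 51.4% of NAIN3's elsewhere. AcIN3 and NAIN3 shared 11, which was 52.4% of AcIN3's and 32.4% of NAIN3's, against 45.9% and 47.1% elsewhere. Whether the profiles were closer here than elsewhere thus depended on the measure. Nucleotides share libraries, and the labels list a single rRNA control group for all reagents, so these correlations are descriptions.

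NAIN3 scored exactly 0 at 53 of the 299 nucleotides (17.7%), where the background was 10.2% and the rest of 28S had 9.69%. This was the highest share of the 10 sections, followed by ES7L with 16.8% and the domain IV core with 12.2%, and the peptidyl transferase part of domain V had 5.99%. AcIm scored 0 at 3 nucleotides (1.00%, background 0.755%) and AcIN3 at 1 (0.334%, background 1.37%). Under the assumption above, both NAIN3 replicates were at 0 at each of the 53. A signal at the level of the DMSO control and a lack of coverage cannot be told apart at a score of 0.

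**Figure D3:**
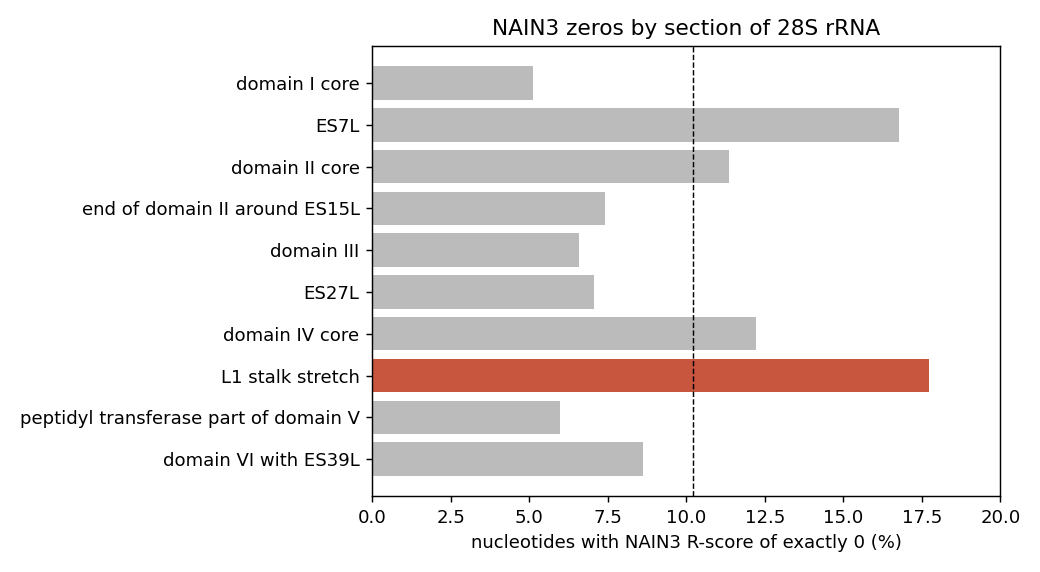
Share of nucleotides (%) with a NAIN3 mean R-score of exactly 0 in each of 10 consecutive sections of 28S rRNA, with the L1 stalk stretch in red. The dashed line is the share over all scored 28S nucleotides (10.2%), and the stretch has 17.7%.

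The zeros were packed. With zeros joined across gaps of at most 5 nt and groups of 5 or more kept, 47 of the 53 zeros (88.7%) lay in 5 groups, compared with 49.0% of the zeros in the rest of 28S. The groups spanned nt 3925 to 3936 (5 zeros), nt 3979 to 3988 (5), nt 4052 to 4079 (18), nt 4129 to 4138 (9) and nt 4147 to 4164 (10). Outside these groups, which spanned 78 nt, 6 of 221 nucleotides were at 0 (2.71%). Of 31 such groups in 28S, 2 held more zeros than the one at nt 4052 to 4079. Unbroken runs of 5 or more zeros occurred 16 times in 28S, 3 of them in the stretch, and the run of 10 at nt 4065 to 4074 was 1 of 2 that reached that length.

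The patches differed in what the other reagents saw. Through the 10 nucleotides of nt 4065 to 4074 AcIm scored from 0.0425 to 0.2755 (median 0.101) and AcIN3 from 0.058 to 0.438 (median 0.212). For each of these reagents 9 of the 10 lay above its 28S median. Their median ranks, 63.7 for AcIm and 75.4 for AcIN3, were the second highest and the highest among the 16 runs of NAIN3 zeros. The strongest nucleotides in the run were nt 4072 (0.2755 for AcIm and 0.438 for AcIN3) and nt 4073 (0.1805 and 0.3665). NAIN3 was not silent on either side, with 0.246 at nt 4064 and 0.230 at nt 4076.

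In contrast, nt 4132 to 4138 was low with AcIm as well. AcIm scored at most 0.023 in these 7 nucleotides (median rank 7.6). AcIN3 scored at most 0.0565 at 4 of them but reached 0.2355 at nt 4132, 0.0985 at nt 4138 and 0.1165 at nt 4136. At nt 4134 all 3 reagents were at 0, the only such nucleotide of the stretch. The run ended 2 nt before the peak at nt 4140. The run at nt 4158 to 4164 was intermediate, with median ranks of 37.5 for AcIm and 42.2 for AcIN3, and nt 4163 was its most reactive nucleotide (0.1485 and 0.1875). Nt 4156, 2 nt upstream of it, scored 0.686 with NAIN3 against 0.3505 with AcIm.

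Over all 53 NAIN3 zeros of the stretch, AcIm had a median rank of 37.5 and AcIN3 of 47.4, compared with 30.4 and 31.0 at NAIN3 zeros elsewhere. Of these 53 nucleotides 18 lay above the 28S median of AcIm (34.0%, against 32.2% of the zeros elsewhere). Above that of AcIN3 lay 23 (43.4%, against 32.2%). Both medians were exceeded at 16 of the 53, which is 5.35% of the stretch against a background of 2.62%. That background counts all nucleotides, and NAIN3 zeros were themselves more frequent in the stretch (17.7%, background 10.2%). Among the 512 NAIN3 zeros of all 28S, 132 exceeded both medians. The group at nt 4052 to 4079 alone held 12 of the 18 and 13 of the 23. Where NAIN3 was above 0 in the stretch, the median ranks were 48.5 for AcIm and 49.0 for AcIN3. With NAIN3 zeros left out, rho between AcIm and NAIN3 was 0.68 in the stretch and 0.67 elsewhere, and between AcIN3 and NAIN3 it was 0.64 and 0.61. By rank, the correlations with NAIN3 were therefore not below those elsewhere once the zeros were left out.

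**Figure D4:**
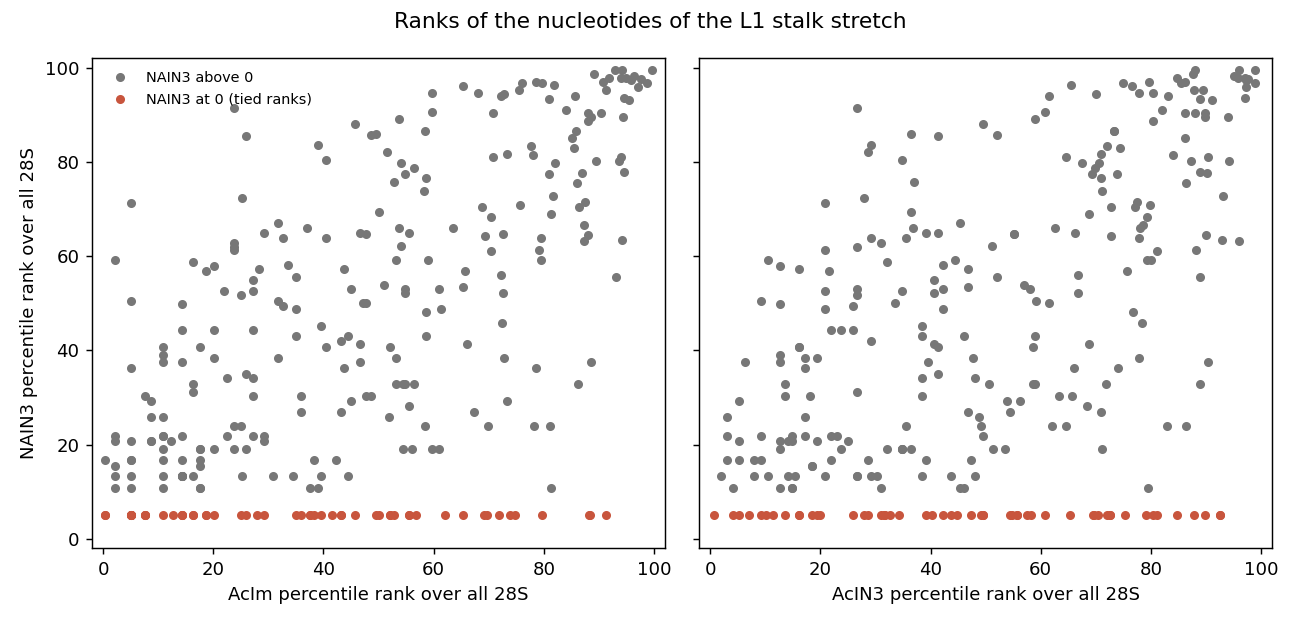
Percentile rank over all scored 28S nucleotides with NAIN3 (vertical) against AcIm (left) and AcIN3 (right) for the 299 nucleotides of the stretch. The 53 nucleotides at 0 with NAIN3, in red, share 1 tied rank and spread along the horizontal axes. Above rank 50 were 18 of them with AcIm (34.0%) and 23 with AcIN3 (43.4%), against 32.2% with each at NAIN3 zeros elsewhere.

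Along the stretch, NAIN3 varied more between consecutive blocks of 50 nt than the other reagents did. Its median rank began at 61.3 in nt 3877 to 3926, then was 26.9 up to nt 3976, 32.0 up to nt 4026 and 19.9 up to nt 4076. It rose to 55.5 in nt 4077 to 4126 and ended at 15.6 in nt 4127 to 4175. AcIm ran from 24.97 in the last block to 59.5 at nt 4027 to 4076, and AcIN3 from 38.4 to 70.0 in the same blocks. The block at nt 4027 to 4076 therefore had the highest typical rank with AcIm and AcIN3 and the second lowest with NAIN3. It also held the most top nucleotides of every reagent, 9 for AcIm, 7 for AcIN3 and 9 for NAIN3, beside 17 NAIN3 zeros. In this block rho with NAIN3 was 0.44 for AcIm and 0.33 for AcIN3, and at nt 4127 to 4175 it was 0.42 and 0.33. In the other 4 blocks it lay between 0.59 and 0.74. AcIm and AcIN3 correlated at 0.83 or above in every block.

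**Figure D5:**
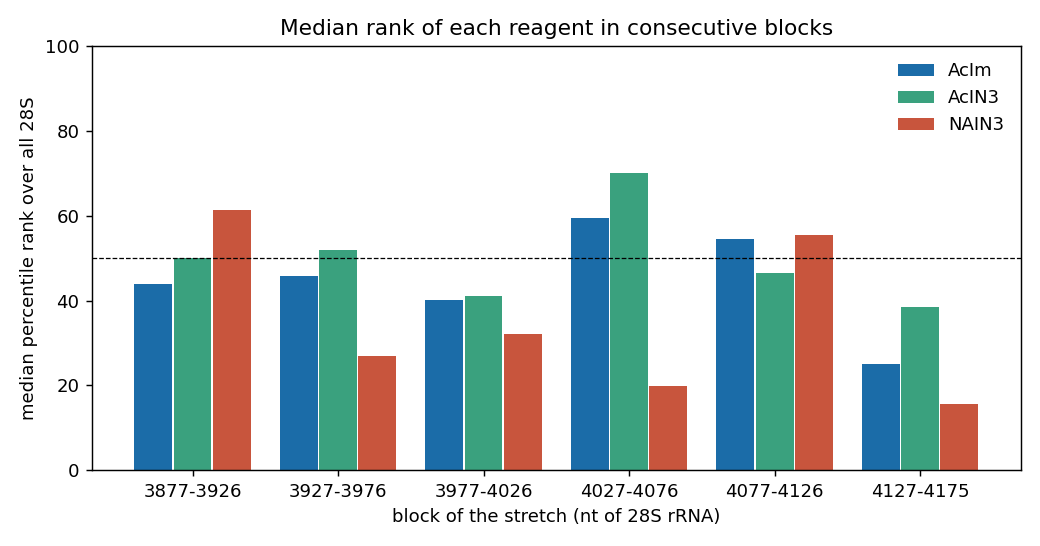
Median percentile rank over all scored 28S nucleotides (0 to 100, dashed line at 50) in 6 consecutive blocks of the stretch, 50 nt each and 49 nt in the last, with AcIm in blue, AcIN3 in green and NAIN3 in red. At nt 4027 to 4076 AcIm stands at 59.5 and AcIN3 at 70.0 while NAIN3 stands at 19.9.

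Nucleotides below the median with every reagent numbered 111 (37.1%, background 32.9%). This was the highest share of the 10 sections by a small margin. ES7L had 36.07%, the domain II core 35.99% and domain III 35.27%. They were spread over 56 runs, and the longest were short. The 7 nucleotides of nt 3981 to 3987 scored at most 0.0275 with AcIm, 0.064 with AcIN3 and 0.0065 with NAIN3. The 6 of nt 4145 to 4150, directly 3′ of the group at nt 4140 to 4144, scored at most 0.0515, 0.087 and 0.017. The 5 of nt 3972 to 3976 scored at most 0.029, 0.064 and 0.0075. In 28S 10 runs were as long as the first of these or longer, up to 16 nt.

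Modified nucleotides of the mature rRNA were listed from general knowledge, and their bases were not checked. Ribose methylation replaces the 2′-hydroxyl that the reagents acylate, and pseudouridine is an isomer of uridine that keeps it. Of 5 listed ribose-methylated nucleotides, Cm3887, Gm3944 and Cm4054 lay below rank 50 with all reagents. Um3925 scored 0 with NAIN3, 0.0705 with AcIm (rank 52.1) and 0.1915 with AcIN3 (rank 72.6). Gm4042 went against the others, in the top 10% of every reagent, with 0.4515 for AcIm, 0.6495 for AcIN3 and 0.331 for NAIN3. Its 5′ neighbour nt 4041 scored at most 0.0345, and its 3′ neighbour nt 4043 scored 0.413, 0.488 and 0.129. The listed position was not checked, and what lies behind this score was not tested. The 3 listed pseudouridines, Psi3884, Psi3920 and Psi3959, lay below rank 50 with every reagent, at scores of at most 0.084. Of all nucleotides of the stretch, 37.1% lay below rank 50 with every reagent (background 32.9%). The listed nucleotides are few, and whether modification lowered their scores was not tested.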

How the data were processed

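Reverse transcription stops on gel-purified rRNA of reagent-treated HEK293 cells were the measurement. Per the file headers, the authors deposited a score for every nucleotide and reagent, the R-score from 0 to 1, averaged over the replicates. Per the submitters' processing notes, Bowtie2 and GRCh38 were used, and no version is named. Not given in the sources used here are the formula of the score, the use of the DMSO background and any depth filter. A score that is floored at 0 and capped at 1 loses order at both ends, and averaging removes replicate error. Replicates, DMSO and polyadenylated RNA were not analysed here, so there is no precision to give for depth.

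The stretch was defined by nucleotide position and not by score. It, the lists and the rules were set with earlier results of these data known. Percentile ranks (ties averaged) and the top 10% (ties by position) were taken over all scored 28S nucleotides. Named nucleotides were the 5 highest per reagent, the 5 widest rank leads per pair and direction among top nucleotides, all that passed the replicate bound, listed modified nucleotides and the ends of groups, runs and blocks. Groups in all reagents joined gaps of at most 3 nt. The zeros of NAIN3, runs of consecutive nucleotides and correlations between neighbours were examined after the data were seen. Section borders follow approximate domain limits. No test was run. The code was tested on simulated data. Tables were computed with pandas 2.3.3, numpy 2.4.6 and scipy 1.17.1 in Python 3.11.15, and plots with matplotlib 3.10.9. Alternatives covered other limits for the top and for low ranks, borders moved by 10 nt, running means, Pearson's r and profiles moved by 1 nt. Others left out 28S ends, nucleotides at 1 in all reagents or NAIN3 zeros.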

Additional observations from a re-analysis of the deposited data

How the results depend on the processing

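No paired analysis was possible because the values are means over the replicates, and for the same reason no replicate could be left out. Of 101 alternatives over 16 results, 78 kept the direction and stayed within the 95% binomial interval of the share or median, within 0.1 for a correlation, or within 1.5 times for a count. Some of the alternatives could not move a result. No nucleotide of the stretch was at 1 in all reagents. Leaving such nucleotides out therefore could not change the correlations within it. The binomial interval treats nucleotides as independent draws, which they are not. It served only as a limit for sorting the alternatives and measures no replicate spread. Ratios are shares in the stretch over shares in 28S. With the top 5%, the AcIm ratio of top nucleotides fell from 0.770 to 0.470. The NAIN3 ratio of 1.14 turned to 0.937 with the top 20% and to 0.936 with running means of 5 nt, and was 1.68 with only the neighbouring sections as reference, so no direction holds for it. Running means also moved the median rank of every reagent. It went from 39.1 to 46.5 for NAIN3, from 46.5 to 42.0 for AcIm and from 48.8 to 51.9 for AcIN3. The place of the stretch among the sections was not computed with running means. Leaving out groups of NAIN3 zeros moved the NAIN3 median rank to 50.6 and the ratio of zeros from 1.74 to 0.472, which follows from removing them. The Spearman correlation between AcIm and NAIN3 became 0.73 with running means, 0.70 as Pearson's r and 0.68 without NAIN3 zeros. For AcIN3 and NAIN3 these were 0.62, 0.66 and 0.64. Moving the second profile by 1 nt in the 5′ and 3′ direction gave 0.228 and 0.217 for AcIm and AcIN3, 0.246 and 0.303 for AcIm and NAIN3, and 0.152 and 0.210 for AcIN3 and NAIN3. The opposed counts of AcIm and NAIN3, 1 in each direction, were 0 and 0 with the top 5% and 7 and 7 with the top 20%. Shares over all 28S at these limits were not computed, so these counts have no background beside them. Depth is unknown and limits every score of 0.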
